A study of Saccharomyces cerevisiae with 4 samples.

Results

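Iron-sulphur clusters are small cofactors of iron and sulphide that enzymes use to carry electrons or to hold substrates. In budding yeast they are first built in mitochondria: a cysteine desulphurase supplies sulphur, a scaffold protein holds the nascent cluster, a chaperone pair releases it, and late-acting proteins convert it or pass it on. The pathway also feeds the cytosolic assembly machinery, and its output tells the transcription factors Aft1 and Aft2 whether to activate iron uptake genes. The genes described here encode 10 proteins of the mitochondrial pathway, chosen by name with earlier results of these data known. These are the scaffolds ISU1 and ISU2, the desulphurase NFS1, the frataxin YFH1 and the chaperones JAC1 and SSQ1. With them are the glutaredoxin GRX5 and the late-acting ISA1, ISA2 and IBA57. All 10 had 1 probe set each, out of 5498 probe sets assigned to exactly 1 S. cerevisiae gene, and all 10 were bright enough to be tested.

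Transcripts were measured on the Affymetrix Yeast Genome 2.0 array, with 1 array per culture and 4 cultures in all. Every culture was strain BY4741, of mating type a with the alleles ura3∆0, leu2∆0, his3∆1 and met15∆0, grown in SC-Leucine at 30 °C to mid-log phase. The control cultures (2 arrays) carried p425-GPD, a LEU2 plasmid with no insert. The other cultures (2 arrays) carried p425-GPD-RNase H1, in which the constitutive GPD promoter drives RNase H1, an enzyme that cuts the RNA strand of RNA-DNA hybrids. The comparison asks which transcripts differ between cultures with and without the insert.

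The MAS5 signal sum per array lay between 6889760 and 7097920, and the number of arrays limits the precision. The labels do not name the species of the insert, and signals of the yeast gene RNH1 were 320.3 and 292 on the control arrays and 303 and 307 on the others, so groups are given as labelled. For the labelled mating type a, the signal of the alpha-factor receptor gene STE2 was 3853 or higher on every array, and that of MF(ALPHA)1, the alpha-factor gene of the opposite mating type, 20.3 or lower. Mating genes also differed between the groups: the a-specific STE2 and BAR1 fell, with log2 fold changes of −0.94 and −2.54 (limma adjusted p = 0.0161 and 0.0188). MFA1 and MFA2, the a-factor genes, stood at −0.83 and −0.48 and did not pass (adjusted p = 0.109 and 0.159). Of the alpha-specific genes, STE3 stood at 1.45, with signals of 33.6 and 41.5 in the controls and 138 and 75.6 on the arrays labelled RNase H1, and MF(ALPHA)1 and MF(ALPHA)2 at −0.24 and −0.28, with no call among these 3 (adjusted p = 0.133, 0.837 and 0.746). The part of mating gene differences in the results below was not tested. The actin 3' to 5' ratio, a sign of RNA quality, was 1.34 on both controls and 1.68 and 1.48 on the arrays labelled RNase H1 with 1 set of actin probe sets, and 1.41, 1.40, 1.47 and 1.30 in the same order with the other. The part of RNA quality in the results below was not tested. In bulk cultures, fewer cells that express a gene and less RNA per cell cannot be told apart.

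Among the assembly genes, ISA1 rose, and it was the 1 member of 10 that passed the test over all probe sets (limma, Benjamini-Hochberg adjusted p under 0.05). No member passed as lower. ISU1 and ISU2 had higher signals on both arrays labelled RNase H1, and YFH1, NFS1, GRX5 and ISA2 lower ones, but none of these passed. JAC1, SSQ1 and IBA57 overlapped between the groups. Of all 5470 tested probe sets, 1.48% passed, 1.13% in the higher and 0.347% in the lower direction, so the count of 1 in 10 rests on a single gene. Before adjustment, 4 members had a p under 0.05, with 3 higher and 1 lower; of all tested probe sets 23.7% did, with 11.0% higher and 12.7% lower. The groups did not overlap in 7 members, 3 higher and 4 lower; of all tested probe sets, 58.8% did not overlap, 28.0% with higher and 30.8% with lower signals. The median log2 fold change of the 10 members was 0.02, beside −0.02 over all tested probe sets, with members ranging from −0.87 to 1.43.

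**Figure D1:**
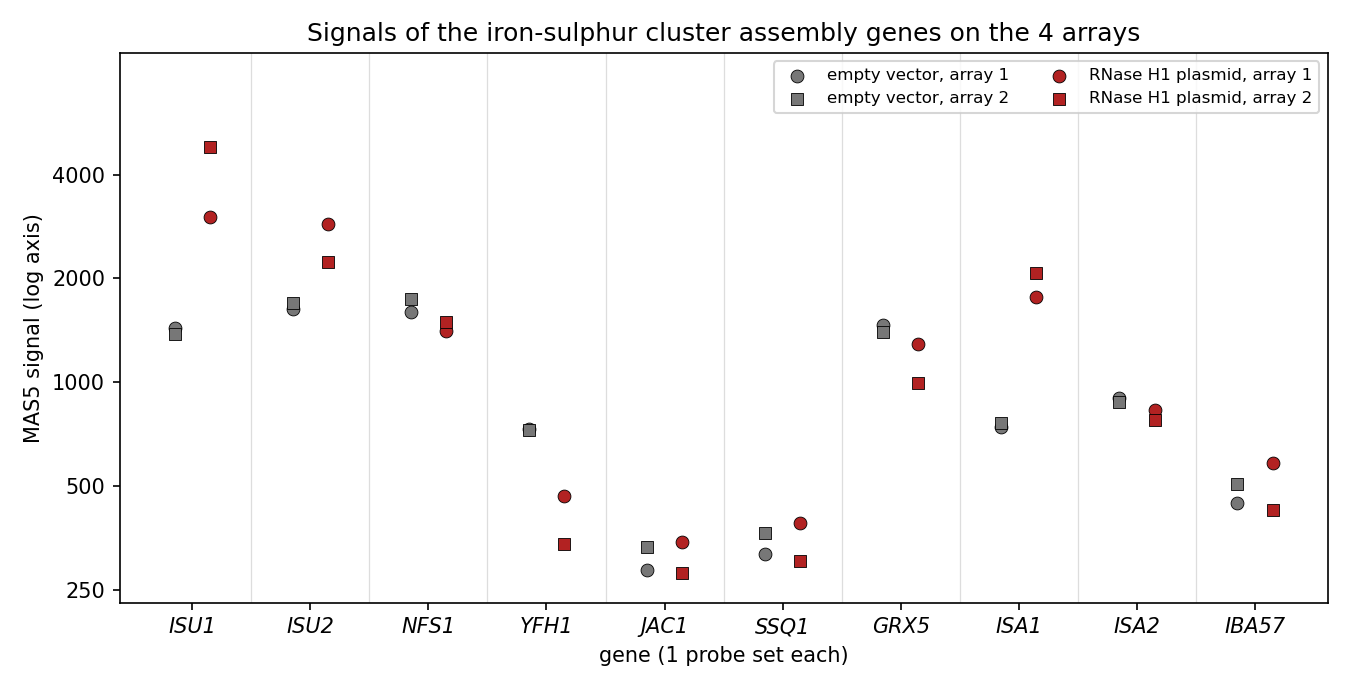
MAS5 signal (log axis) of each of the 10 assembly genes; circles and squares are arrays 1 and 2 of a group, grey for empty vector and red for RNase H1. Both red points lie above both grey points for ISU1, ISU2 and ISA1, and below them for NFS1, YFH1, GRX5 and ISA2.

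The scaffold genes come first in the pathway. ISU1 (YPL135W) encodes the main scaffold on which the cluster is built, and its signals were 1435 and 1381 in the controls and 3005 and 4797 on the arrays labelled RNase H1. The arrays labelled RNase H1 were both far above the controls, but they were also over 1.5-fold apart from each other, the 1 member of 10 for which this held, beside 28.3% of all tested probe sets. The log2 fold change of ISU1 was 1.43 ± 0.24 (SE, n = 2 against 2), or 2.70-fold with a 95% interval of 1.75 to 4.16, and it did not pass (limma adjusted p = 0.0748). Leaving out a control array gave ISU1 a log2 fold change of 1.46 without array 1 and 1.40 without array 2. Leaving out an array labelled RNase H1 moved it farther, to 1.77 without array 1 and 1.09 without array 2. ISU2 (YOR226C), a paralog whose product shares the scaffold role, had signals of 1628 and 1699 in the controls and 2873 and 2228 on the arrays labelled RNase H1. Here the order of the arrays labelled RNase H1 was the opposite of that for ISU1, and the groups did not overlap. The log2 fold change of ISU2 was 0.61 ± 0.16 (1.52-fold, 95% interval 1.14 to 2.03, limma adjusted p = 0.126).

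Within each array, the log2 difference between ISU1 and ISU2 stood 0.31 above its control mean on array 1 and 1.35 above it on array 2 labelled RNase H1, a mean of 0.83 with an SD of 0.74, beside an SD of 0.083 between the controls. The difference was above the controls on both arrays, but its mean was close to the spread between them. An exact two-sided permutation test gave p = 0.333, the smallest that this test can give with 2 arrays against 2. It therefore could not decide whether the pair changed unequally. The probe set names of all 10 members end in _at alone, which in Affymetrix naming marks a probe set for a single transcript; cross-hybridisation between paralogs was not tested.

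NFS1 (YCL017C) encodes the cysteine desulphurase that releases sulphur from cysteine, and its signals were 1600.2 and 1745 in the controls and 1412 and 1494 on the arrays labelled RNase H1. The lower values did not overlap with the controls, yet the gap was close to the spread between the controls. Its log2 fold change was −0.20 ± 0.13 with a 95% interval of −0.53 to 0.13 (limma adjusted p = 0.380). YFH1 (YDL120W), the yeast frataxin, which assists the desulphurase and the scaffold in the first step, had signals of 730.3 and 729 in the controls and 469 and 339.8 on the arrays labelled RNase H1. It had the lowest log2 fold change of the 10, −0.87 ± 0.22 (1.83-fold lower in means, 95% interval of the log2 value −1.44 to −0.30), and it did not pass (limma adjusted p = 0.117). The controls agreed closely, with an SD of 0.0020 on the log2 scale, while the SD between the arrays labelled RNase H1 was 0.33.

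The chaperone genes JAC1 and SSQ1 encode the partners that release the cluster from the scaffold: Ssq1 is a mitochondrial Hsp70 and Jac1 the J-protein that brings the scaffold to it. JAC1 (YGL018C) had signals of 285 and 332 in the controls and 345 and 279.5 on the arrays labelled RNase H1. SSQ1 (YLR369W) had signals of 317 and 365 in the controls and 392 and 304 on the arrays labelled RNase H1. For both genes array 1 labelled RNase H1 was the highest of the 4 arrays and array 2 the lowest, so the controls lay between them. The log2 fold changes were 0.01 ± 0.21 for JAC1 (95% interval −0.54 to 0.57) and 0.02 ± 0.22 for SSQ1 (−0.55 to 0.59), with limma adjusted p of 0.977 and 0.963, and these intervals still allow changes of up to about 1.5-fold either way. Their signs were turned by median scaling and by leaving out control array 1 or array 1 labelled RNase H1. GRX5 (YPL059W), the mitochondrial glutaredoxin that carries clusters after their release, had signals of 1469 and 1396 in the controls and 1293 and 999 on the arrays labelled RNase H1. Array 2 labelled RNase H1 was the lowest, and the log2 fold change of −0.33 ± 0.18 did not pass (95% interval −0.79 to 0.13, limma adjusted p = 0.312).

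Isa1, Isa2 and Iba57 act together late in the pathway, where clusters of 4 iron atoms are made for enzymes such as aconitase and lipoic acid synthase. ISA1 (YLL027W) had signals of 742 and 764 in the controls and 1770.4 and 2076 on the arrays labelled RNase H1. The values within each group lay close together, with SDs of 0.029 and 0.16 on the log2 scale, and the groups were far apart. ISA1 rose 2.55-fold (log2 1.35 ± 0.15 SE, n = 2 against 2, 95% interval 1.95-fold to 3.33-fold, limma adjusted p = 0.0397). This call was lost without control array 1 (adjusted p = 0.112) or control array 2 (adjusted p = 0.0906), after median scaling (adjusted p = 0.0575) and without an intensity trend in limma (adjusted p = 0.0910). The log2 fold change itself lay between 1.23 and 1.46 when any array was left out.

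ISA2 (YPR067W) had signals of 901 and 875 in the controls and 829 and 779 on the arrays labelled RNase H1. All 4 values lay close together, and the log2 fold change was −0.14 ± 0.15 (95% interval −0.52 to 0.24, limma adjusted p = 0.578). The log2 difference between ISA1 and ISA2 within an array stood 1.33 and 1.65 above its control mean on the arrays labelled RNase H1, a mean of 1.49 with an SD of 0.23, beside an SD of 0.060 between the controls. This mean was larger than the spread within either group. The exact permutation test again gave p = 0.333, the smallest it can give, so it could not decide on the difference between the genes. IBA57 (YJR122W) had signals of 447 and 506 in the controls and 584 and 426 on the arrays labelled RNase H1. As for the chaperone genes, array 1 labelled RNase H1 was the highest and array 2 the lowest, and the log2 fold change was 0.07 ± 0.23 (95% interval −0.52 to 0.66, limma adjusted p = 0.871). The sign of IBA57 turned without control array 1 and without array 1 labelled RNase H1.

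**Figure D2:**
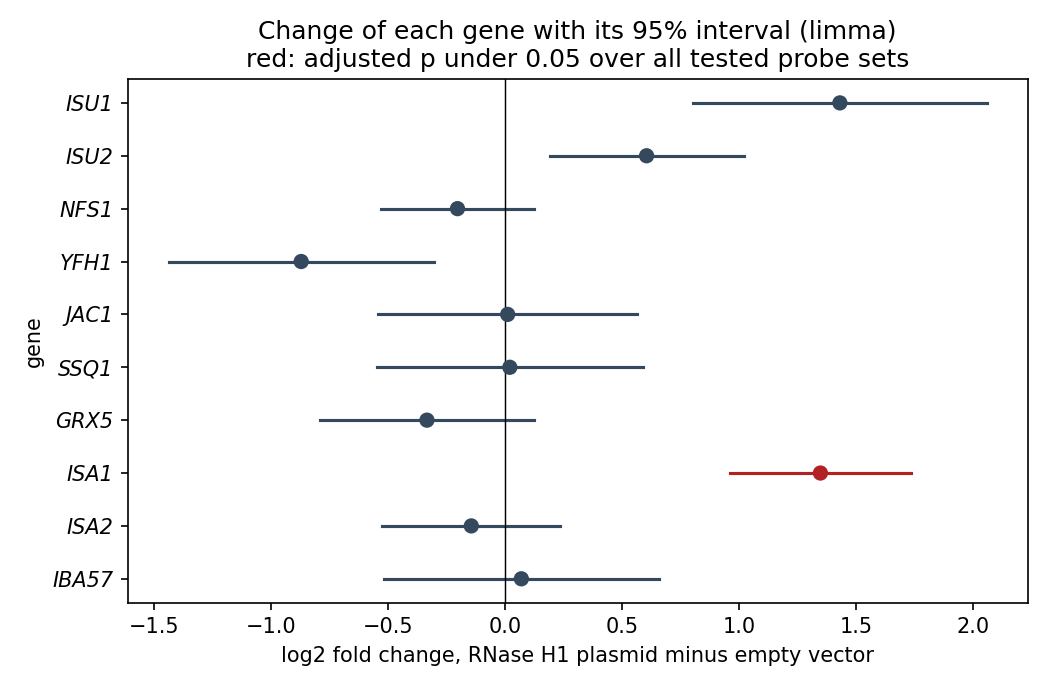
Log2 fold change of each assembly gene, RNase H1 minus empty vector (points), with the 95% interval from limma (lines); red marks an adjusted p under 0.05. The intervals of ISU1, ISU2, YFH1 and ISA1 leave out 0, and ISA1 is the gene marked red.

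Replicates lay farther apart in the RNase H1 group than in the control group, for the assembly genes as for the rest of the array. The median SD on the log2 scale over the 10 members was 0.048 in the controls and 0.26 in the arrays labelled RNase H1, beside 0.076 and 0.24 over all tested probe sets. JAC1, SSQ1 and IBA57 were above the control mean on array 1 and below it on array 2, which held for 20.8% of all tested probe sets. The other 7 members moved the same way on both arrays. They are the 7 without overlap between the groups, beside 58.8% of all tested probe sets. ISU1, ISA1, YFH1, GRX5 and ISA2 lay farther from the controls on array 2, and ISU2 and NFS1 farther on array 1.

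**Figure D3:**
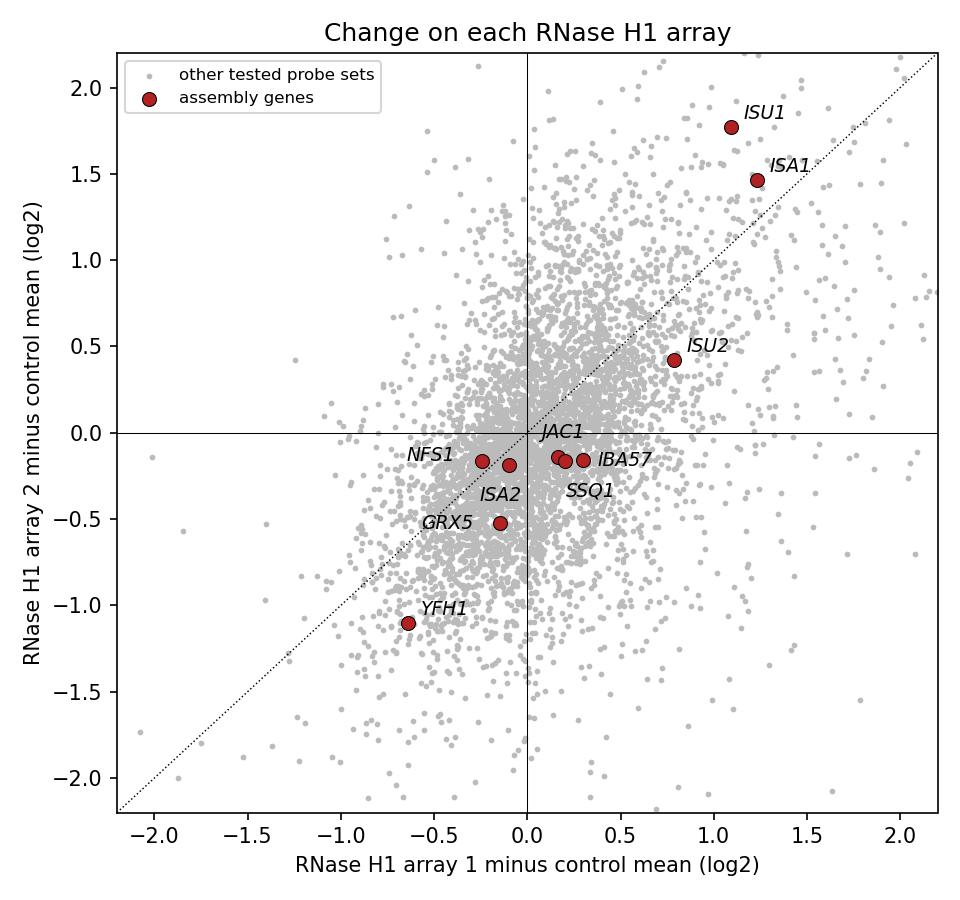
Log2 difference from the control mean on array 1 (x axis) and array 2 (y axis) labelled RNase H1, for the 10 assembly genes (red) and the other tested probe sets (grey); 117 probe sets lie outside the plotted range. ISU1, ISA1 and ISU2 sit in the upper right, YFH1 in the lower left, and JAC1, SSQ1 and IBA57 together below 0 on array 2.

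The genes whose pattern over the 4 arrays was closest to that of ISA1, by Euclidean distance between log2 signals after subtraction of the control mean, were ICY1, MET16 and VTC3. Being chosen by these same signals, they have fold changes near that of ISA1 by construction. ICY1 (YMR195W) lay at a distance of 0.073, with a log2 fold change of 1.34 ± 0.11 (limma adjusted p = 0.0227). MET16, a reductase gene of sulphate assimilation, lay at 0.093, with a log2 fold change of 1.35 ± 0.18 that did not pass (limma adjusted p = 0.0531). VTC3, a subunit of the polyphosphate polymerase, lay at 0.13, with a log2 fold change of 1.28 ± 0.11 (limma adjusted p = 0.0240).

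The assembly proteins work with mitochondrial partners, of which 12 of 13 listed genes had a probe set. These encode the desulphurase subunits ISD11 and ACP1, the ferredoxin YAH1 and its reductase ARH1, the nucleotide exchange factor MGE1, the transfer factors NFU1 and BOL3, the exporter ATM1, ERV1, and the carriers MRS3, MRS4 and GGC1. In limma 0 of 12 passed in either direction. By unadjusted p (threshold 0.05), 1 was higher and 1 lower, beside 11.0% and 12.7% of all tested probe sets. Their median log2 fold change was 0.08. YAH1 had signals of 1649 and 1582 in the controls and 2158 and 2905 on the arrays labelled RNase H1 (log2 0.63 ± 0.17, adjusted p = 0.135). ARH1 had signals of 318 and 371 in the controls and 248 and 181 on the arrays labelled RNase H1 (log2 −0.70 ± 0.24, adjusted p = 0.189). The ferredoxin and its reductase thus lay on opposite sides of the controls, without either passing. Of the 12 partners, 5 were higher and 3 lower without overlap between the groups, beside 28.0% and 30.8% of all tested probe sets. The third smallest p was that of MRS4, a mitochondrial iron carrier, whose signals of 330.4 and 342 in the controls stood beside 379 and 605 on the arrays labelled RNase H1 (log2 0.51 ± 0.28, adjusted p = 0.320).

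The cytosolic assembly machinery takes a sulphur compound exported from mitochondria and builds clusters for cytosolic and nuclear proteins. Of its 10 genes, 0 passed in limma, with 3 higher and 0 lower by unadjusted p, beside 11.0% and 12.7% of all tested probe sets. Of the 10, 9 lay above 0, beside 2660 of all 5470 tested probe sets. The groups did not overlap in 6, all higher, beside 28.0% of all tested probe sets that were higher without overlap. The median log2 fold change was 0.40, beside −0.02 over all tested probe sets. This list too was chosen with earlier results of these data known, so these counts are not independent evidence of a direction. CFD1, a subunit of the cytosolic scaffold, had signals of 445 and 387 in the controls and 806 and 899 on the arrays labelled RNase H1 (log2 1.04 ± 0.17, adjusted p = 0.0748). NAR1, which links the early and late steps, had signals of 369 and 398 in the controls and 677 and 1109 on the arrays labelled RNase H1 (log2 1.18 ± 0.28, adjusted p = 0.110). CIA2, part of the complex that hands clusters to their targets, had signals of 506 and 429 in the controls and 657 and 1017 on the arrays labelled RNase H1 (log2 0.81 ± 0.27, adjusted p = 0.177). In all 3 genes array 2 labelled RNase H1 was the highest. NBP35, the partner of Cfd1 in the scaffold, stood at a log2 fold change of 0.33 ± 0.18 (adjusted p = 0.320).

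Proteins that receive clusters were divided by compartment. Of 7 mitochondrial client genes with a probe set, out of 8 listed, 0 passed in limma, and the median log2 fold change was −0.05. By unadjusted p, 1 was higher and 2 lower, beside 11.0% and 12.7% of all tested probe sets. ACO1, the aconitase of the tricarboxylic acid cycle, had signals of 5406 and 5532 in the controls and 8047 and 7169.9 on the arrays labelled RNase H1 (log2 0.47 ± 0.08, adjusted p = 0.0741). RIP1, the Rieske subunit of the cytochrome bc1 complex, had signals of 1068 and 1176 in the controls and 620.5 and 475 on the arrays labelled RNase H1 (log2 −1.05 ± 0.20, adjusted p = 0.0857). SDH2, the iron-sulphur subunit of succinate dehydrogenase, had signals of 1313 and 1359.6 in the controls and 928 and 522 on the arrays labelled RNase H1 (log2 −0.94 ± 0.30, adjusted p = 0.172). The respiratory chain subunits thus lay below the controls and aconitase above them, none past the threshold. Of the 7 genes, 3 were higher and 3 lower without overlap between the groups, beside 28.0% and 30.8% of all tested probe sets. Among the clients that depend on the Isa proteins, LIP5, the lipoic acid synthase, stood at 0.24 ± 0.17 on the log2 scale (adjusted p = 0.438) and LYS4, the homoaconitase, by 0.28 ± 0.15 (adjusted p = 0.326). BIO2, the biotin synthase, had signals of 762 and 683 in the controls and 347 and 813 on the arrays labelled RNase H1, which therefore fell on both sides of the controls.

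All 18 listed cytosolic and nuclear client genes were measured, and 0 passed in limma. By unadjusted p (threshold 0.05), 1 was higher and 1 lower, beside 11.0% and 12.7% of all tested probe sets. Their median log2 fold change was 0.01, and their changes lay between −0.46 and 0.48. DPH2, an enzyme of diphthamide synthesis, stood at a log2 fold change of 0.48 ± 0.13 (adjusted p = 0.129). POL1, the catalytic subunit of DNA polymerase alpha, had one of −0.40 ± 0.15 (adjusted p = 0.203), and APD1 one of −0.46 ± 0.19 (adjusted p = 0.237). LEU1, the isopropylmalate isomerase of leucine synthesis, had signals of 8188 and 8329 in the controls and 7865 and 6151 on the arrays labelled RNase H1 (log2 −0.25 ± 0.13, adjusted p = 0.298).

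The factors that read the state of cluster assembly include Aft1 and Aft2, the glutaredoxins Grx3 and Grx4 with Bol2 (also known as Fra2) and Fra1, and Yap5, a sensor of high iron. Of these 7 genes 0 passed in limma, and the median log2 fold change was 0.38. By unadjusted p, 2 were higher and 2 lower, beside 11.0% and 12.7% of all tested probe sets. AFT1 had signals of 452 and 498 in the controls and 1015 and 885 on the arrays labelled RNase H1 (log2 1.00 ± 0.17, adjusted p = 0.0748). YAP5 had signals of 151 and 155 in the controls and 286 and 348 on the arrays labelled RNase H1 (log2 1.05 ± 0.21, adjusted p = 0.0886). BOL2 had signals of 2385 and 2449 in the controls and 1759 and 1435 on the arrays labelled RNase H1 (log2 −0.60 ± 0.14, adjusted p = 0.109). AFT1 and YAP5 thus lay above the controls and BOL2 below them, without a call. AFT2 stood at 0.98 ± 0.45 (limma adjusted p = 0.267), with its arrays labelled RNase H1 at 0.34 and 1.62 above the control mean. Of the 7 genes, 4 were higher and 2 lower without overlap between the groups, beside 28.0% and 30.8% of all tested probe sets.

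Genes of iron uptake and use that Aft1 and Aft2 activate give the scale for these values. Of 26 such genes, all tested, 13 rose and 0 fell, beside 1.13% higher and 0.347% lower of all tested probe sets. All 26 lay above 0, beside 2660 of all 5470, with a median log2 fold change of 1.65 and a range of 0.06 to 5.42. The 13 were the cell wall genes FIT2 and FIT3, the siderophore transporters ARN1, ARN2, SIT1 and ENB1, the ferroxidase and permease FET3 and FTR1, the reductases FRE1, FRE3 and FRE6, the copper transporter CCC2, and TIS11. The list was chosen with its direction in these samples known, so it is not independent evidence of that direction. TIS11, whose RNA-binding product removes transcripts of iron-using proteins, had signals of 59.2 and 89.9 in the controls and 2699 and 3618 on the arrays labelled RNase H1 (log2 5.42 ± 0.29, adjusted p = 0.00905). FTR1, the high-affinity iron permease, had the smallest log2 fold change of the 13, 1.43 ± 0.14 (limma adjusted p = 0.0292). Beside it, ISU1 stood at 1.43 ± 0.24 and ISA1 at 1.35 ± 0.15, below the list median of 1.65. In fits that take the spread from the controls alone, the count of 13 became 21 when array 1 of the RNase H1 pair was left out and 25 when array 2 was, and without an intensity trend it became 4.

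**Figure D4:**
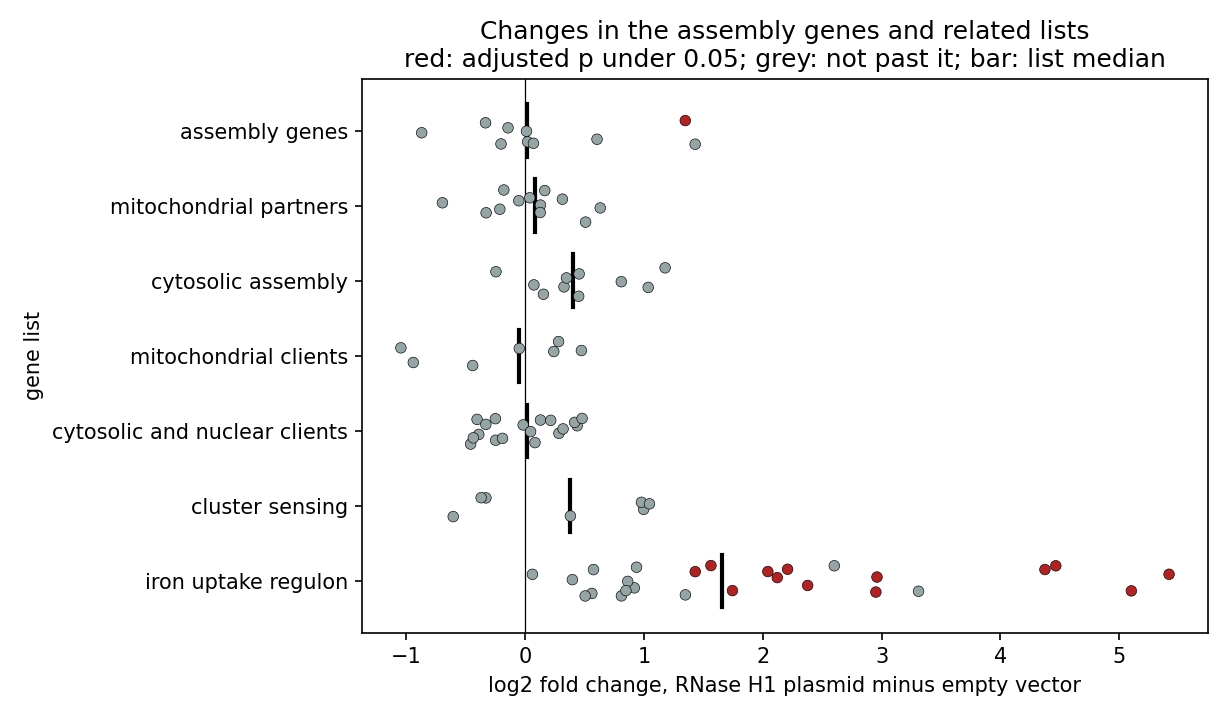
Log2 fold change, RNase H1 minus empty vector, of every tested gene in the assembly list and 6 related lists; red points passed an adjusted p of 0.05, grey points did not, and black bars are list medians. The 13 red points of the iron uptake regulon and that of ISA1 are the calls among these lists.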

How the data were processed

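Labelled RNA was amplified from 150 ng of RNA by in vitro transcription for 8 h, per the labels' protocols. The deposited table gives each probe set's signal on each array as a linear intensity, computed by the authors in Affymetrix Expression Console (MAS5), per the submitters' processing notes. No scaling target was stated. Probe sets were named through the platform annotation and the R64 gene table (12 symbols updated). Of 5498 probe sets with 1 S. cerevisiae gene, 5470 were tested: their mean log2 signal exceeded the 75th percentile of the 1746 S. pombe probe sets, a signal of 2.13. Log2 signals, not scaled further, were compared with limma 3.58.1 in R 4.3.3 (lmFit, eBayes with an intensity trend). The p-values were two-sided and adjusted by Benjamini-Hochberg over all 5470. The steps were tested on simulated data with the same spread in both groups, unlike the measured arrays.

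The labels call the replicates biological but give equal numbers no shared day or batch, so arrays were not paired. Members and lists were chosen with earlier results of these data known. From each list the text names the members past the threshold or with the 3 smallest p. Of the 13 iron genes past it, values are given for a few. These, NBP35, LIP5, LYS4, BIO2, LEU1 and AFT2 were picked after their values were seen. The alternatives were other scaling (quantile, median, cyclic loess), other dim filters, pseudocounts of 16 and 64, eBayes made robust or without the trend, a replicate block, an adjusted p under 0.10, and each array left out. After the data were seen, a crossed block and a minimum mean signal of 100 were added.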

Additional observations from a re-analysis of the deposited data

How the results depend on the processing

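With 2 arrays in a group, the spread behind each test is poorly known, and a fit without an array labelled RNase H1 takes it from the controls alone. Of 170 values of the 10 assembly genes under the alternatives, 144 kept their direction and side of the threshold, 4 (all ISA1) were no longer past it, 14 were newly past it and 8 changed sign. Other dim filters, the minimum signal, the eBayes settings, the blocks and the looser threshold leave the log2 fold change as it is. Direction could therefore not change in those fits, and genes far from the threshold could hardly cross it. The tally is thus no measure of stability. The sign changes were in JAC1 and SSQ1, at −0.023 and −0.014 after median scaling, and in JAC1, SSQ1 and IBA57 when 1 array was left out. Over the fits that left out an array, JAC1 ranged from −0.14 to 0.16, SSQ1 from −0.16 to 0.20 and IBA57 from −0.16 to 0.30; the cause was not tested.

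After median scaling, 0 assembly genes and 41 probe sets passed as higher. Without an intensity trend, the higher calls were 0 assembly genes, 4 iron uptake genes and 7 probe sets in all, and 0 probe sets were called lower. Probe sets lower numbered 12 with a pseudocount of 64 and 12 with robust eBayes, against 19. At an adjusted p under 0.10, 192 probe sets were higher and 173 lower, with 2 assembly, 1 cytosolic assembly, 1 mitochondrial client and 2 sensing genes higher and 1 mitochondrial client lower.

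With the replicate number as a block, 2 assembly genes were higher, ISA1 and ISU1 (adjusted p = 0.0410), and no other count of calls in a gene list moved by over 1.5 times. Same-numbered arrays deviated in opposite directions (correlation −0.30). A crossed block pairs each control with the other-numbered array, was added after the data were seen, and is not given by the labels. It takes such opposite deviations out of the spread, so its calls are not independent evidence. It called 483 probe sets higher and 454 lower. Higher were 3 assembly, 1 partner, 3 cytosolic assembly, 1 mitochondrial client and 3 sensing genes. Lower were 1 assembly, 2 mitochondrial client, 1 cytosolic or nuclear client and 1 sensing gene.

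With each array left out in turn, probe sets higher ranged from 54 to 1184 and lower from 10 to 1604, and assembly genes higher from 1 to 3 and lower from 0 to 2. With a control left out, the spread comes from the pair labelled RNase H1 alone, and ISU1 was called in place of ISA1. The ranges were 0 to 2 higher and 0 to 3 lower for mitochondrial partners, 0 to 7 and 0 to 1 for cytosolic assembly genes, 0 to 2 and 0 to 3 for mitochondrial clients, 0 to 3 and 0 to 7 for cytosolic and nuclear clients, 0 to 3 and 0 to 3 for sensing genes, and 11 to 25 higher and 0 lower for iron uptake genes.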

Other observations

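The 10 assembly genes have 20 protein-coding neighbours in the R64 gene order, of which 17 had a probe set here. In limma 0 of these 17 passed, beside 1.48% of all tested probe sets (smallest adjusted p = 0.0663). That smallest value belonged to LEU2, the neighbour of NFS1, which is deleted at its own locus in this strain and carried by both plasmids. LEU2 had signals of 12568 and 12870 in the controls and 10348 and 10619 on the arrays labelled RNase H1 (log2 −0.28 ± 0.04), beside a log2 fold change of −0.20 ± 0.13 for NFS1. ISA1 lies between TPO1, a polyamine transporter gene (log2 0.51, adjusted p = 0.128), and HSP104, a heat shock chaperone gene (log2 −0.04, adjusted p = 0.972). ISU1 lies between GIP3 (log2 0.14, adjusted p = 0.649) and ODC1, a mitochondrial carrier gene (log2 0.30, adjusted p = 0.406).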
